A study of Homo sapiens with 6 samples.

Results

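Fibronectin and 9 further secreted glycoproteins that cells use to grip or sense the matrix were followed in mammary epithelial cells with and without stable expression of the transcription factor SNAI1. The genes were FN1, POSTN, EDIL3, SPARC, SPOCK1, TNC, THBS1, THBS2, TGFBI and SPP1. They were chosen by name, with earlier results of these data known. Each was represented by 1 probe set annotated with that symbol alone, and they are 10 of 18417 genes that could be named in the same way. RNA was hybridised to Affymetrix HuGene arrays, 3 for MCF10A-SNAI1 cells and 3 for MCF10A cells. MCF10A is a human breast epithelial line that grows without limit but does not form tumours. MCF10A-SNAI1 cells are MCF10A cells that had received a plasmid in which a chicken beta-actin promoter, coupled to a CMV enhancer, drives Flag-tagged SNAI1, and had then been selected with puromycin. MCF10A cells were untransfected, so they carried neither a plasmid nor the selection, and the SNAI1 line had been made in another laboratory than the one that supplied the MCF10A cells. Plasmid, selection, cell stock and laboratory of origin therefore cannot be told apart from SNAI1 in this comparison. No source used here says whether the selected line is a clone or a pool.

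Matricellular proteins are secreted into the extracellular matrix but do not build its main scaffold. They bind collagens, growth factors and cell surface receptors, above all integrins, and so modulate how cells attach, spread and migrate. Fibronectin is an adhesive glycoprotein that cells assemble into fibrils, and its gene is widely used as a mesenchymal marker in epithelial-mesenchymal transition.

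The 10 genes did not move as a group. EDIL3 and POSTN were higher in MCF10A-SNAI1 cells by 107-fold and 93.3-fold, FN1 by 2.77-fold and SPOCK1 by 2.08-fold, whereas SPARC was lower by 6.77-fold. The folds of EDIL3 and POSTN are set against low mean signals in MCF10A cells. The mean of EDIL3 lay within the lowest 20% of all values and that of POSTN below their median. Single MCF10A arrays lay above these limits, replicate 1 for EDIL3 at 4.16 and replicate 2 for POSTN at 6.19. Neither mean is shown to be above background. To be called, a gene had to differ by more than 2-fold with a limma p under 0.01 after Benjamini-Hochberg adjustment, which covered all 33297 probe sets. By this rule 4 of the 10 genes were called higher, against a background of 3.10% of all named genes, and 1 was called lower, against 2.54%. Because the genes were chosen with earlier results of these data known, these counts are descriptions and not a test of enrichment. The other 5 were not called. Of these, THBS1 was higher and TGFBI and TNC were lower, all with a passing p and a difference smaller than 2-fold, and THBS2 and SPP1 did not pass the p threshold. At an adjusted p below 0.01 and any fold, 12.1% of all named genes were higher and 11.2% lower. The median log2 fold change, always MCF10A-SNAI1 minus MCF10A, was 0.34 over the 10 genes and -0.01 over all genes. The 3 arrays of the lines did not overlap for 9 of the genes, of which 6 had all MCF10A-SNAI1 arrays above and 3 all below the MCF10A arrays. Among all genes the arrays did not overlap for 23.7% (higher) and 24.6% (lower), so a lack of overlap alone was common.

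**Figure D1:**
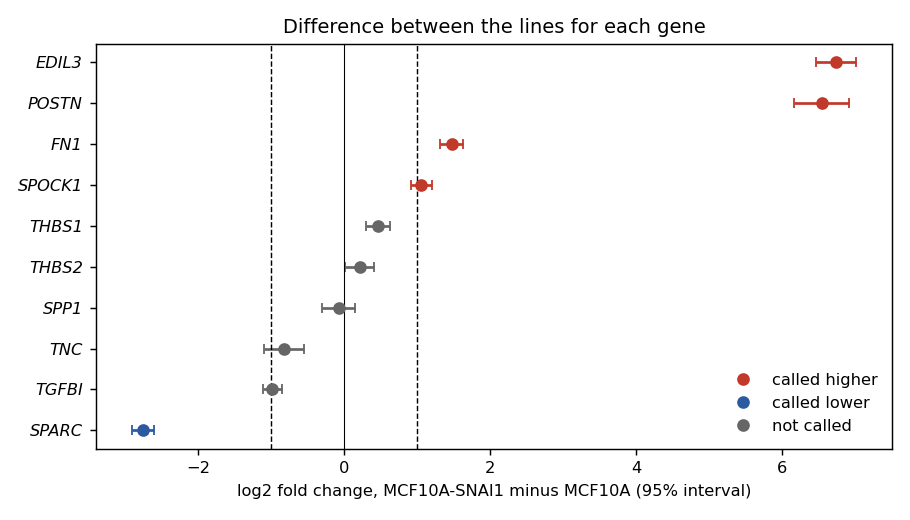
Log2 fold change of each gene (x axis, MCF10A-SNAI1 minus MCF10A) with its 95% interval from limma, 3 arrays per line, and dashed lines at a 2-fold difference. EDIL3 at 6.74 and POSTN at 6.54 stand far to the right, SPARC at -2.76 to the left, and TGFBI at -0.99 lies just inside the line.

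Of the 10 genes, 9 had an entry in the RefSeq promoter table of GRCh38.p14, the exception being SPOCK1. The 250 bases before the transcription start are shown 5′ to 3′ for the called genes with an entry and for SPP1, which was not called, so that windows of genes with different outcomes can be read side by side. Capitals mark matches, on either strand, to 4 motifs: CAGGTG, the E-box that Snail proteins bind, TGANTCA, the AP-1 site, GGAATG, the core of the TEAD site, and TATAAA, the TATA box. The windows are chr13:37598769-37599018 (minus strand) for POSTN, chr5:84384881-84385130 (minus strand) for EDIL3, chr2:215436069-215436318 (minus strand) for FN1, chr5:151686916-151687165 (minus strand) for SPARC and chr4:87975464-87975713 (plus strand) for SPP1.
POSTN: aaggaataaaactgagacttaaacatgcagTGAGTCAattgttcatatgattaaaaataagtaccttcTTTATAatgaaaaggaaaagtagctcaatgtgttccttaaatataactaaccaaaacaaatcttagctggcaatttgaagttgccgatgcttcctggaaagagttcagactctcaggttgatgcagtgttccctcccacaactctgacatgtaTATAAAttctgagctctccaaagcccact
EDIL3: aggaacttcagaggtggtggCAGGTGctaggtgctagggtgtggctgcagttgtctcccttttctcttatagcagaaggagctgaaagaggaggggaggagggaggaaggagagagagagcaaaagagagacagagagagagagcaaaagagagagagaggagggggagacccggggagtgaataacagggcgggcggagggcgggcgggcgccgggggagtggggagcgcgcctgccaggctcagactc
FN1: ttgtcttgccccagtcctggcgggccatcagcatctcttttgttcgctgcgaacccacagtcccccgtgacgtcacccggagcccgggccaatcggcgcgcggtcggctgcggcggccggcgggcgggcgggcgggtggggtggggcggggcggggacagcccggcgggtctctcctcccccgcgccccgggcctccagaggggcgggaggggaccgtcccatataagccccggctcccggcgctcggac
SPARC: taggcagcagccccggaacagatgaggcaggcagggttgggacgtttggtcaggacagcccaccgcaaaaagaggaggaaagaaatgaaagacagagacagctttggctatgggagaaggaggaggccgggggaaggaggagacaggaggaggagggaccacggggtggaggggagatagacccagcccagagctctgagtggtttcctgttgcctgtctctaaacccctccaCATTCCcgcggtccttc
SPP1: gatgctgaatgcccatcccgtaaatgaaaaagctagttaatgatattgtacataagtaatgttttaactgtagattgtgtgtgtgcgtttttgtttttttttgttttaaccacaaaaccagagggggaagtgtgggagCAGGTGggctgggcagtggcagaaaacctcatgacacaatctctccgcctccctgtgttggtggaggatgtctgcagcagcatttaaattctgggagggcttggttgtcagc
The Snail E-box was found in 2 of the 9 genes, EDIL3 and SPP1, and in 17.5% of all 35116 promoter windows of the table. It lay 230 bases before the start in EDIL3, which was called higher, and 112 bases before the start in SPP1, which was not called. EDIL3 has 2 windows in the table, from starts a few bases apart, and the same E-box was in both. The AP-1 site was found in POSTN alone of the 9, 220 bases before the start, against 6.57% of all windows. The TATA box motif was found in POSTN and THBS2, against 10.7% of all windows, counted on either strand and at any position. In both genes it lay 29 bases before the start. POSTN had another match on the opposite strand, 182 bases before the start. The TEAD core was in SPARC, THBS1 and THBS2, against 11.9% of all windows. FN1, TNC and TGFBI held none of the 4 motifs in these windows. Matches did not overlap each other, and a match is a run of letters, not evidence of binding.

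The 6 arrays had medians between 6.04 and 6.09 on the log2 scale, and Pearson's r across probe sets was 0.977 to 0.978 for arrays of different lines and 0.995 to 0.996 for arrays of the same line. SNAI1 itself was at 10.51 ± 0.015 in MCF10A-SNAI1 cells and at 5.76 ± 0.037 in MCF10A cells (SD, n = 3 arrays each). All values below are on this log2 scale with SD over 3 arrays. Signals of different probe sets depend on their probes, so the levels of the 10 genes are not ranked against each other. The labels do not say that the 3 arrays of a line came from separate cultures, while the article calls the transcriptomes independently reproduced, so p-values may reflect technical spread alone. With 3 arrays against 3, an exact two-sided permutation test cannot go below p = 0.1. This exact test gave its lowest value for each of the 9 genes whose arrays did not overlap, and an exact p = 0.5 for SPP1. Arrays that do not overlap always give this lowest value, so for the 9 genes the test adds nothing to the lack of overlap.

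**Figure D2:**
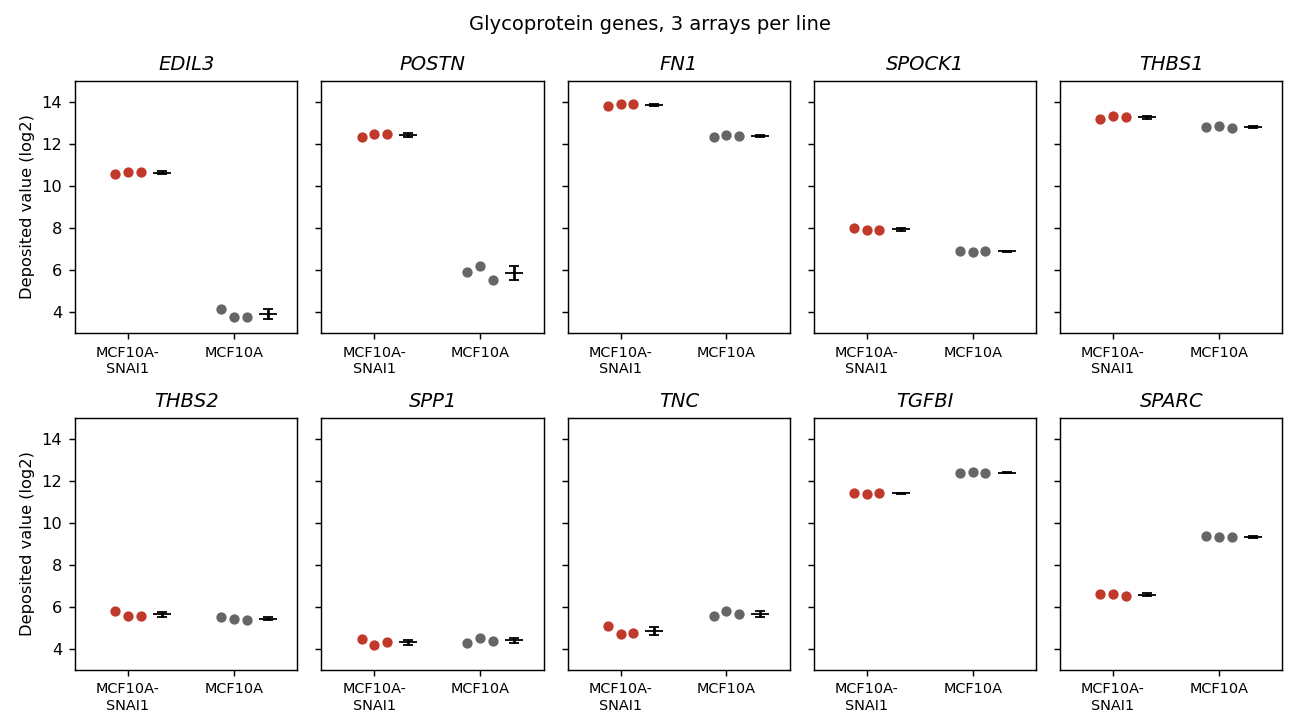
Deposited log2 value of each gene (y axis) on every array of MCF10A-SNAI1 (red, left) and MCF10A (grey, right), black marks giving the mean and the SD over the 3 arrays. The lines overlap for SPP1 alone, and the gap between them spans over 6 log2 units for EDIL3 and POSTN.

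EDIL3 and POSTN had the second and the third highest log2 fold change of all named genes. They were 2 of the 4 genes with a log2 fold change above 6, which is 0.0217% of all named genes. EDIL3 encodes a secreted integrin ligand with EGF-like repeats and discoidin domains, also called DEL-1. It was at 10.56, 10.65 and 10.68 on the MCF10A-SNAI1 arrays, against 4.16, 3.75 and 3.77 on the MCF10A arrays. Every MCF10A-SNAI1 array lay at least 6.40 above every MCF10A array. The log2 fold change was 6.74 (standard error 0.12, adjusted p = 1.77e-07 from limma). The mean of EDIL3 in MCF10A cells, 3.89, lay below 3.94, the limit of the lowest 20% of all values. The table holds no detection calls, and the part of background in the size of the differences of EDIL3 and POSTN was not tested.

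POSTN encodes periostin, which has fasciclin domains and binds collagen, tenascin-C and integrins. It was at 12.33, 12.46 and 12.49 on the MCF10A-SNAI1 arrays and at 5.92, 6.19 and 5.53 on the MCF10A arrays. The MCF10A-SNAI1 arrays lay close together (SD 0.085) and the MCF10A arrays were spread more widely (SD 0.33), yet the lines stood at least 6.14 apart. The log2 fold change was 6.54 (standard error 0.16, adjusted p = 7.11e-07 from limma). The mean of POSTN in MCF10A cells, 5.88, was below the median of all values, 6.05. In MCF10A-SNAI1 cells POSTN lay above 99.0% of all probe sets, against 47.7% in MCF10A cells. The pooled within-line SD of POSTN, 0.24, was larger than that of 98.1% of all named genes, and that of EDIL3, 0.17, was larger than that of 88.7%.

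FN1 was among the brightest probe sets of both lines. Its values were 13.80, 13.89 and 13.88 on the MCF10A-SNAI1 arrays, against 12.33, 12.45 and 12.36 on the MCF10A arrays, with a gap of 1.34 between the lines. FN1 thus lay above 99.96% of all probe sets in MCF10A-SNAI1 cells and above 98.9% in MCF10A cells. The log2 fold change of 1.47 (95% interval 1.32 to 1.62, standard error 0.064, adjusted p = 9.07e-06 from limma) placed it 272nd from the top among all named genes.

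SPARC and SPOCK1 went in opposite directions. SPARC, or osteonectin, is a calcium- and collagen-binding protein, and SPOCK1, or testican-1, is a proteoglycan that carries a SPARC-like calcium-binding domain. SPARC was at 6.61, 6.62 and 6.50 on the MCF10A-SNAI1 arrays, against 9.39, 9.32 and 9.31 on the MCF10A arrays. The 2 sets of arrays were 2.68 apart, and each was tight (SD 0.067 in MCF10A-SNAI1 and 0.045 in MCF10A cells). The log2 fold change was -2.76 (standard error 0.064, adjusted p = 6.10e-07 from limma), the 73rd lowest of all named genes. In MCF10A-SNAI1 cells SPARC lay above 57.3% of all probe sets, against 88.0% in MCF10A cells. SPOCK1 was at 8.01, 7.89 and 7.92 on the MCF10A-SNAI1 arrays, against 6.90, 6.86 and 6.89 on the MCF10A arrays. Its log2 fold change was 1.06 (adjusted p = 3.10e-05 from limma), and the 95% interval of 0.91 to 1.20 included the fold threshold. The within-array difference between SPOCK1 and SPARC was also taken, 1 of 3 pairs of related genes compared in this way. The shift of SPOCK1 exceeded that of SPARC by 3.82 log2 units. The arrays of the lines did not overlap in this difference (exact two-sided permutation p = 0.1, the smallest possible, and 0.15 after Benjamini-Hochberg adjustment over the 3 pairs). All SPOCK1 arrays were higher and all SPARC arrays lower in the SNAI1 line, so this outcome was fixed in advance. The p-value therefore adds nothing to the results of the 2 genes.

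TGFBI is the close relative of POSTN, likewise built of fasciclin domains, and is induced by TGF-beta in many cells. In contrast to POSTN it was not called. It was at 11.41, 11.38 and 11.40 on the MCF10A-SNAI1 arrays and at 12.35, 12.41 and 12.38 on the MCF10A arrays, so all arrays of the SNAI1 line were lower. The log2 fold change of -0.99 (95% interval -1.12 to -0.85, adjusted p = 2.96e-05 from limma) was just under the 2-fold limit. Without MCF10A replicate 1 it was -1.003, past the limit, and TGFBI was then called lower. Its pooled within-line SD, 0.026, was smaller than that of all but 1.61% of the named genes. The shift of POSTN exceeded that of TGFBI by 7.53 log2 units. Again the arrays did not overlap in the within-array difference (exact two-sided permutation p = 0.1, and 0.15 after adjustment over the 3 pairs). With all POSTN arrays higher and all TGFBI arrays lower in the SNAI1 line, this outcome too was fixed in advance.

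The thrombospondins THBS1 and THBS2, multidomain glycoproteins that bind CD36 and CD47 and restrain the growth of blood vessels, differed little between the lines. THBS1 can also activate latent TGF-beta. It was at 13.20, 13.36 and 13.27 on the MCF10A-SNAI1 arrays, against 12.79, 12.88 and 12.77 on the MCF10A arrays, a log2 fold change of 0.46 (95% interval 0.30 to 0.62, adjusted p = 0.00272 from limma). THBS1 was thus higher by 1.38-fold, and lay above 99.8% of all probe sets in MCF10A-SNAI1 cells and above 99.5% in MCF10A cells. Its adjusted p was above 0.01 without MCF10A-SNAI1 replicate 2 or 3 or MCF10A replicate 1 or 3, at 0.0118, 0.0129, 0.0134 and 0.0147, and by the methods' t-test, at 0.0121. THBS2 was at 5.79, 5.57 and 5.56 on the MCF10A-SNAI1 arrays and at 5.50, 5.43 and 5.35 on the MCF10A arrays. The lines were separated by 0.067 only, and the log2 fold change of 0.22 (95% interval 0.017 to 0.41) did not pass the test (adjusted p = 0.123 from limma). The within-array difference between THBS2 and THBS1 overlapped between the lines. The shift of THBS2 minus that of THBS1 was -0.24, with an exact two-sided permutation p = 0.3 before and after adjustment over the 3 pairs.

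TNC encodes tenascin-C, a large glycoprotein that appears in remodelling stroma and modulates adhesion to fibronectin. It was at 5.06, 4.70 and 4.75 on the MCF10A-SNAI1 arrays, against 5.54, 5.80 and 5.64 on the MCF10A arrays. All MCF10A-SNAI1 arrays were lower, by at least 0.48, and the log2 fold change was -0.82 (95% interval -1.09 to -0.54, adjusted p = 0.00204 from limma). The adjusted p of TNC was above 0.01 without MCF10A replicate 3, at 0.0101, with the replicate number as a block, at 0.0142, and by the methods' t-test, at 0.0245. SPP1, the gene of osteopontin, a phosphoprotein that binds integrins and CD44, was at 4.44, 4.20 and 4.30 on the MCF10A-SNAI1 arrays and at 4.29, 4.53 and 4.35 on the MCF10A arrays. Its arrays overlapped, and the log2 fold change was -0.08 (95% interval -0.30 to 0.14, adjusted p = 0.66 from limma). SPP1 lay above 25.5% of all probe sets in MCF10A-SNAI1 cells and above 26.6% in MCF10A cells. TNC lay above 32.6% in MCF10A-SNAI1 and 44.4% in MCF10A cells, and THBS2 above 44.0% and 41.1%. Without detection calls such levels do not show whether SPP1, TNC or THBS2 was expressed.

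**Figure D3:**
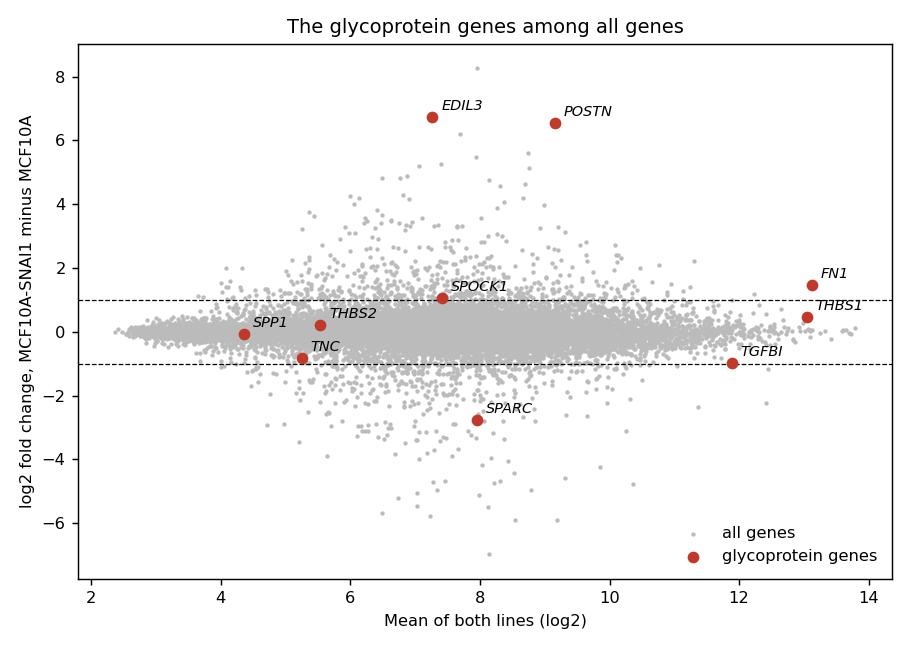
Log2 fold change (y axis, MCF10A-SNAI1 minus MCF10A) against the mean of both lines (x axis, log2) for all 18417 named genes (grey) and the glycoprotein genes (red), with dashed lines at a 2-fold difference. EDIL3 and POSTN lie at the upper edge of the cloud, and FN1, THBS1 and TGFBI at its bright end.

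The genes whose profile over the 6 arrays was most like that of each of the 4 genes with the largest differences were found by the root mean square difference of values centred on each gene's mean. For POSTN these were the potassium channel gene KCNK2 (0.23), EDIL3 (0.25) and SRGN (0.49), which encodes the proteoglycan serglycin. For EDIL3 they were POSTN (0.25), KCNK2 (0.45) and SRGN (0.57). The genes nearest to SPARC were JUP (0.058), which encodes the junction protein plakoglobin, LPCAT2 (0.059) and PTPRF (0.078). JUP was at 7.45 in MCF10A-SNAI1 cells and at 10.24 in MCF10A cells. Nearest to FN1 were HIF1A (0.030), CTSF (0.036) and the fibrillin gene FBN2 (0.038). With 2 lines, the measure is small for any genes that differ between the lines by the same amount, and it was used as a description.

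Among 18 measured relatives from the same protein families, 2 were called higher and none lower, with a median log2 fold change of 0.04. The background for this and the following counts is again 3.10% of all named genes called higher and 2.54% called lower. FSTL1, a secreted protein of the SPARC family, was at 11.35 ± 0.038 in MCF10A-SNAI1 cells and at 8.93 ± 0.080 in MCF10A cells (log2 fold change 2.42, adjusted p = 1.13e-06 from limma), so it moved opposite to SPARC. MFGE8, the relative of EDIL3 with the same type of discoidin domains, was higher at a log2 fold change of 1.38. THBS3 was higher under 2-fold, at 0.91 (adjusted p = 2.89e-04 from limma). The other 15 relatives, among them THBS4, COMP, TNR and IBSP, did not pass an adjusted p of 0.01. Of the 6 CCN proteins, matricellular proteins that bind integrins and growth factors, CCN2 and CCN1 were called higher at log2 fold changes of 2.42 and 1.17. CCN3 was at 0.41 (adjusted p = 0.0053 from limma) and the other 3 did not pass the p threshold.

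Of 22 further adhesive glycoproteins, 5 were called higher, none lower, 5 were higher by less than 2-fold with a passing p, and 12 did not reach that p. Of the 5 fibulin genes FBLN1, FBLN2, FBLN5, EFEMP1 and EFEMP2, 3 were called higher. FBLN1, which binds fibronectin and basement membrane proteins, was at 11.44 ± 0.091 in MCF10A-SNAI1 cells and at 8.72 ± 0.035 in MCF10A cells (log2 fold change 2.72, adjusted p = 7.78e-07 from limma). The fibulins FBLN5 and EFEMP1 were higher at log2 fold changes of 2.27 and 2.21. Among these genes, EFEMP2 was higher under the fold limit, at 0.63, and FBLN2 was at 0.02 with overlapping arrays (adjusted p = 0.885 from limma). ECM1 was higher at 2.03. The basement membrane gene NID2 was at 1.05, and was not called without MCF10A replicate 2, at 0.95, nor by the methods' t-test (adjusted p = 0.0123). Of 16 matrix proteins that the glycoproteins bind, 8 were called higher and none lower, with a median of 1.29. The proteoglycan gene DCN was at 12.09 in MCF10A-SNAI1 cells and at 3.83 in MCF10A cells, so its log2 fold change of 8.26 is likewise set against a signal in the lowest 20% of all values. The log2 fold changes of the collagen genes COL3A1 and COL12A1 were 5.14 and 3.97, and that of the fibrillin gene FBN1 was 4.59. COL6A3 and COL1A1 were at 3.56 and 2.57.

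Receptors of these glycoproteins changed in both directions. Of 19 measured, 3 were called higher, 3 lower and 13 were not called, with a median log2 fold change of -0.09. LRP1, an endocytic receptor that takes up thrombospondins, was at 9.41 ± 0.058 in MCF10A-SNAI1 cells and at 6.61 ± 0.024 in MCF10A cells (log2 fold change 2.81, adjusted p = 4.52e-07 from limma). ITGA5, which pairs with ITGB1 to bind fibronectin, was higher at 1.5 and ITGB8 at 1.08. ITGB6, the chain of an epithelial fibronectin and tenascin-C receptor, was lower at -5.47, the tenascin-C binding phosphatase PTPRZ1 at -2.53 and the syndecan SDC1 at -1.80. ITGA4 was at -0.98 and was called lower without MCF10A replicate 3, at -1.05. The integrin chains ITGAV and ITGB1 did not pass, both at 0.17 (adjusted p = 0.0987 and 0.0969 from limma). Of 18 genes listed for the cross-linking or cleavage of matrix proteins, 7 were called higher and 1 lower. ADAMTS1, a protease that cleaves proteoglycans, was at 4.62, MMP2 at 3.28, the collagen cross-linking enzymes LOX and LOXL2 at 2.88 and 1.86, and the transglutaminase TGM2, which binds fibronectin, at 2.30. BMP1, a procollagen protease, was at 1.23 for its brightest probe set and at 0.70 and not called when its probe sets were averaged. The urokinase gene PLAU was lower at -4.18. The lists hold genes that earlier results of these data showed to change, so their counts are descriptions.

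**Figure D4:**
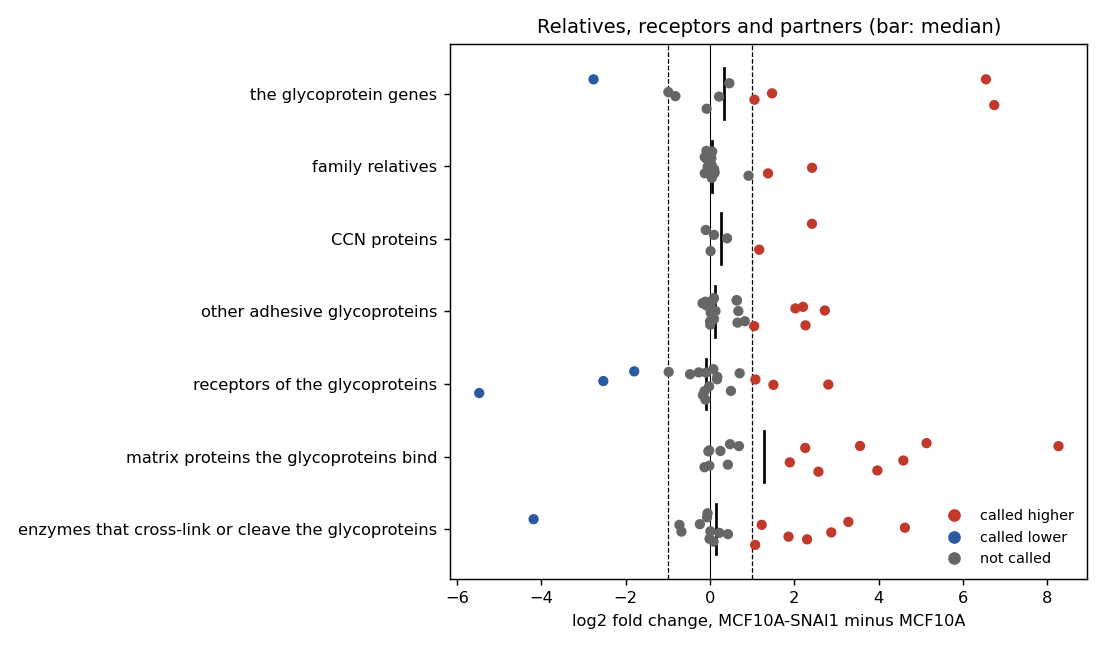
Log2 fold change (x axis, MCF10A-SNAI1 minus MCF10A) of the glycoprotein genes and of 6 lists of relatives, receptors and partners, a point per gene, with genes called higher in red, lower in blue and not called in grey, a black bar at each median and dashed lines at a 2-fold difference. The matrix proteins the glycoproteins bind have a median of 1.29, and the receptors lie on both sides of 0.

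Markers of cell types were read on the same arrays. Of 7 genes listed as basal mammary epithelial markers, 5 could be read, KRT5, KRT14, CDH1, EPCAM and DSP. TP63 and KRT17 had no probe set annotated with their symbol alone and were left out for that reason. All 5 were called lower. Their mean log2 level lay between 6.86 and 7.05 over the MCF10A-SNAI1 arrays, against 10.83 to 10.90 over the MCF10A arrays. A change particular to basal cells, rather than to epithelial genes in general, was not tested. CDH1, the epithelial cadherin, was at 5.07 in MCF10A-SNAI1 cells and at 9.05 in MCF10A cells. KRT5 was at 11.30 in MCF10A-SNAI1 cells, against 13.53 in MCF10A cells. Of 8 fibroblast markers, 4 were called higher, DCN, COL3A1, COL1A1 and LUM, and the list averaged 7.70 to 7.84 over the MCF10A-SNAI1 arrays, against 5.52 to 5.55 over the MCF10A arrays. LUM was at 4.77 ± 0.46 in MCF10A-SNAI1 cells and at 3.23 in MCF10A cells, the latter within the lowest 20% of all values. By the methods' t-test LUM was not called (adjusted p = 0.0282). THY1, PDGFRA, PDGFRB and FAP did not pass the p threshold and had log2 fold changes of 0.08, 0.27, 0.40 and -0.42. Of 5 endothelial markers and 4 leukocyte markers none was called, and the highest of these, CD68, was at 0.99 (adjusted p = 8.86e-05 from limma). DCN, COL3A1 and COL1A1 are also among the matrix proteins counted above. The part of a change in cell types in the differences was not tested, and in RNA from whole cultures fewer cells of a type and less RNA per cell cannot be told apart.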

How the data were processed

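Arrays of MCF10A-SNAI1 and MCF10A cells were hybridised on the Affymetrix HuGene-1_0-st-v1 platform, with no pooled samples. The table that the authors deposited holds normalized log2 values of 33297 probe sets. For its making, the article gives GC RMA and GeneSpring, whereas MAS5, GCOS and Affymetrix Expression Console 1.1 stand in the submitters' processing notes. No source used here says which of these made it. The values were used as deposited, without a filter.

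In the annotation used here, 1 symbol was given for 19460 probe sets, more than 1 for 1754, and no symbol for 12083. Symbols were updated through Entrez IDs in GRCh38.p14, and the brightest probe set stood for a gene, which gave 18417 genes. Each of the 10 glycoprotein genes had 1 such probe set. Groups came from the sample titles. Differences were fitted in R 4.3.3 with limma 3.58.1 (lmFit, eBayes), checked on simulated arrays. The study's methods state an unpaired t-test with Benjamini-Hochberg adjustment, significance at 0.01 and a 2-fold limit. These thresholds were kept, and the t-test, called the methods' t-test, was an alternative. The median of each list, beside that of all genes, replaced a set test. The precision was limited by 3 arrays per line.

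The glycoprotein genes, lists and tests were chosen with earlier results of these data known. The named genes were the glycoprotein genes, SNAI1 and CDH1, the 6 called genes with the largest change in either direction of a list, and the 3 nearest profiles of the 4 genes with the largest differences. KRT5, CD68 and measured but uncalled list members that the text names were chosen after their values were seen. Alternatives left out 1 array at a time, blocked on replicate number, normalized by quantiles, centred each array, removed dim probe sets (the lowest 20%, or all under the median), used a trended or a robust prior, ran the methods' t-test, dropped the fold limit, or averaged a gene's probe sets. An alternative for linear values was not run, because the table is log2. Protein sequences were not analysed here. Promoter windows were scanned in Python 3.11.15.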

Additional observations from a re-analysis of the deposited data

How the results depend on the processing

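The calls of EDIL3, POSTN, FN1, SPOCK1 and SPARC held under every alternative that was run, with log2 fold changes of 6.67 to 6.87, 6.37 to 6.70, 1.45 to 1.51, 1.02 to 1.08 and -2.78 to -2.72. Their highest adjusted p under any of these was 3.51e-04, 6.43e-04, 7.16e-04, 8.79e-04 and 2.61e-04. With each array left out in turn, 1 to 2 of the glycoprotein genes were called lower and TGFBI ranged between -1.003 and -0.97. The second call was TGFBI, without MCF10A replicate 1. The filter at the median removed TNC, THBS2 and SPP1 from the fit and left the calls of the others. Both filters of dim probe sets used the mean of all 6 arrays. EDIL3 passed both, and POSTN the filter at the median, only through the MCF10A-SNAI1 signals. Their means in MCF10A cells, 3.89 and 5.88, lay under these limits, 3.94 and 6.05 for EDIL3 and 6.05 for POSTN. Those fits therefore do not test their calls. Without the fold threshold, the counts grew because the rule was looser. It called 5 glycoprotein genes higher and 3 lower, 10 other adhesive glycoproteins higher and none lower, and 5 receptors higher and 5 lower. It also called 11 matrix proteins higher and none lower, and 8 genes of cross-linking or cleavage higher and 2 lower. In the 6 lists together 40 genes were called higher and 7 lower, and in all 2220 genes higher and 2059 lower. The counts at both thresholds were 571 higher and 467 lower, and the methods' t-test gave 512 and 423. With the replicate number as a block, 564 genes were called higher and 464 lower, and no call of a glycoprotein gene changed. Deviations of arrays with the same number correlated at 0.115, 0.122 and -0.0062, not every array correlated best with its own number, and the numbers were not taken as pairs. Quantile normalization left the 3 pair differences at -0.24, 7.52 and 3.81. Signal over background could not be examined in this table, which holds neither probe values nor detection calls.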

Other observations

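Of the 10 genes, EDIL3, SPARC, SPOCK1 and TGFBI lie on chromosome 5, and these 4 include a gene called lower, a lower gene under the fold limit and both a large and a small rise. The nearest measured genes on either side of each glycoprotein gene, in the order of gene starts in GRCh38.p14, were 20 distinct genes, of which none was called higher, against 3.10% of all named genes, and 2 were called lower, against 2.54%. FAT2, a protocadherin gene beside SPARC, was lower, at a log2 fold change of -3.37 (adjusted p = 3.18e-06 from limma), while ATOX1 on the other side was at 0.0038. MREG beside FN1 was at -2.34 (adjusted p = 2.20e-05), opposite to FN1. The neighbours of POSTN were at 0.12 and -0.07 (CSNK1A1L and TRPC4), and those of EDIL3 at -0.04 and 0.14 (HAPLN1 and NBPF22P). These neighbours were looked up after the values of the glycoprotein genes were known.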
